A study of Saccharomyces cerevisiae with 4 samples.

Results

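The 5′ part of domain V of the yeast 25S rRNA, nucleotides 2361 to 2600, was examined for cross-linking to the RNA helicase Dbp7. Its 240 nucleotides, 63 of them uridines, were taken by position from the 3396 nucleotides of 25S and the 6858 nucleotides of the 35S pre-rRNA transcript. The choice was made with earlier results of these data known. The sequence belongs to the gene RDN25-2, one of the rDNA copies on chromosome XII, and lies wholly within mature 25S. PAR-CRAC is a cross-linking method in which 4-thiouracil, taken up by growing yeast and built into RNA, is cross-linked to bound protein by light at 365 nm and is later read as a T-to-C substitution in the cDNA. Of the 4 libraries, 2 came from a strain that expresses Dbp7 with a C-terminal His-TEV-Protein A tag (Dbp7-HTP) from its own locus, and 2 came from the untagged strain (WT), which reports the RNA that is carried through the purification without a tagged protein. Both strains had the BY4741 background, and both received 4-thiouracil and light.

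Domain V forms the core of the large subunit and holds the peptidyl transferase centre, where peptide bonds are made. Its 2 ends are held together by a root helix, and the snoRNA snR190 has a box that can pair with sequence overlapping the 5′ strand of that helix. Further downstream the L1 stalk protrudes from the subunit, a mobile arm of rRNA that binds the ribosomal protein uL1 and moves with the deacylated tRNA as it leaves the E site. RNA helicases of the DExD box family, to which Dbp7 belongs, unwind short duplexes and remodel the RNA of precursor particles.

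Sequence features were used to divide the 240 nucleotides into stretches. The longest uninterrupted Watson-Crick complementarity between snR190 and 25S was 10 nt, and it covered nucleotides 2395 to 2404. The longest uninterrupted stem of Watson-Crick pairs within the 240 nucleotides had 8 base pairs, between nucleotides 2457 to 2464 and 2511 to 2518. For short, nucleotides 2457 to 2518 are called the L1 stalk hairpin here. The stem was found by sequence alone and need not close the stalk. With G-U pairs allowed, nucleotides 2435 to 2444 can also pair with 2503 to 2512, so the stalk may begin before 2457. In that case part of it lies in the stretch called before the hairpin. The sequences are shown because these features set the borders of the stretches compared and because substitutions can be recorded only at uridines. In the parts before and after the hairpin, capitals mark the 12 uridines that had more substitutions with Dbp7-HTP. In the hairpin they mark the stem found by sequence. The 2 short stretches of snR190 and 25S pair at all positions.
25S nucleotides 2361 to 2456, before the hairpin: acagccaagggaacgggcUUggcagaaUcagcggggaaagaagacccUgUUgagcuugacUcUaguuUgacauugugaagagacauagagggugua
25S nucleotides 2457 to 2518, L1 stalk hairpin: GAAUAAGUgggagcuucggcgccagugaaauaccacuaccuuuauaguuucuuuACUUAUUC
25S nucleotides 2519 to 2600, after the hairpin: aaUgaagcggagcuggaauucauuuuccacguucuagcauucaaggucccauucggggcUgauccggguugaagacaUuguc
snR190 nucleotides 22 to 31: UCUUCUUUCC
25S nucleotides 2395 to 2404: GGAAAGAAGA

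The uridines were unevenly spread. The 34 nucleotides upstream of the snR190 complementarity held 3 uridines, the 10 nucleotides of the complementarity held 0, and the 52 nucleotides between it and the hairpin held 16. The hairpin held 21 and the 82 nucleotides after it held 23. Uridines made up 26.3% of the 240 nucleotides and 25.6% of 25S. A direct contact within the snR190 complementarity could thus be seen only as coverage by reads that carried a substitution elsewhere.

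Depth differed between the libraries. Coverage summed over 25S came to 8375877 and 4880685 in Dbp7-HTP replicates 1 and 2, against 469422 and 930584 in WT replicates 1 and 2. Substitutions in 25S numbered 260879 and 164866 with Dbp7-HTP, against 15309 and 28678 in WT. Coverage was divided by the number of mapped reads to give reads per 1000000 mapped reads (RPM). That number was known for the second replicates and estimated for the first, whose RPM are uncertain to that extent. WT replicate 1 was the shallowest library, and as few as 7 of its reads covered a nucleotide of the hairpin. The study describes the replicates as independent experiments. The labels do not say whether these were separate cultures, and p-values measure only the spread between these libraries. An exact two-sided permutation test of 2 against 2 libraries cannot give a p below 0.333.

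Dbp7-HTP cross-linked RNA covered the stretch before the hairpin at a level far above WT. Mean coverage of nucleotides 2361 to 2456 was 2782 and 2294 RPM in the Dbp7-HTP libraries, against 153 and 196 RPM in WT, and the strains did not overlap (log2 ratio 3.86, exact permutation test, two-sided, p = 0.333). The L1 stalk hairpin was covered by 233 and 188 RPM with Dbp7-HTP, against 106 and 179 RPM in WT. The strains differed by less there than the WT libraries did from each other. After the hairpin, coverage was high in every library, at 3434 and 3203 RPM with Dbp7-HTP, against 2415 and 1184 RPM in WT.

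The profile within each library showed the same contrast without any scaling between libraries. Coverage before the hairpin was 11.9 and 12.2 times that of the hairpin in the Dbp7-HTP libraries, against 1.44 and 1.09 times in the WT libraries. Coverage after the hairpin exceeded that of the hairpin 14.7- and 17.0-fold with Dbp7-HTP, against 22.7- and 6.60-fold in WT, and on this measure the strains overlapped. With Dbp7-HTP, 47.4 and 44.5% of the coverage of the 240 nucleotides lay before the hairpin, against 6.71 and 14.8% in WT. The hairpin held 2.57 and 2.36% with Dbp7-HTP, against 3.0 and 8.76% in WT. Dbp7-HTP reads thus lay on both sides of the hairpin, and WT reads mostly on its 3′ side.

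**Figure D1:**
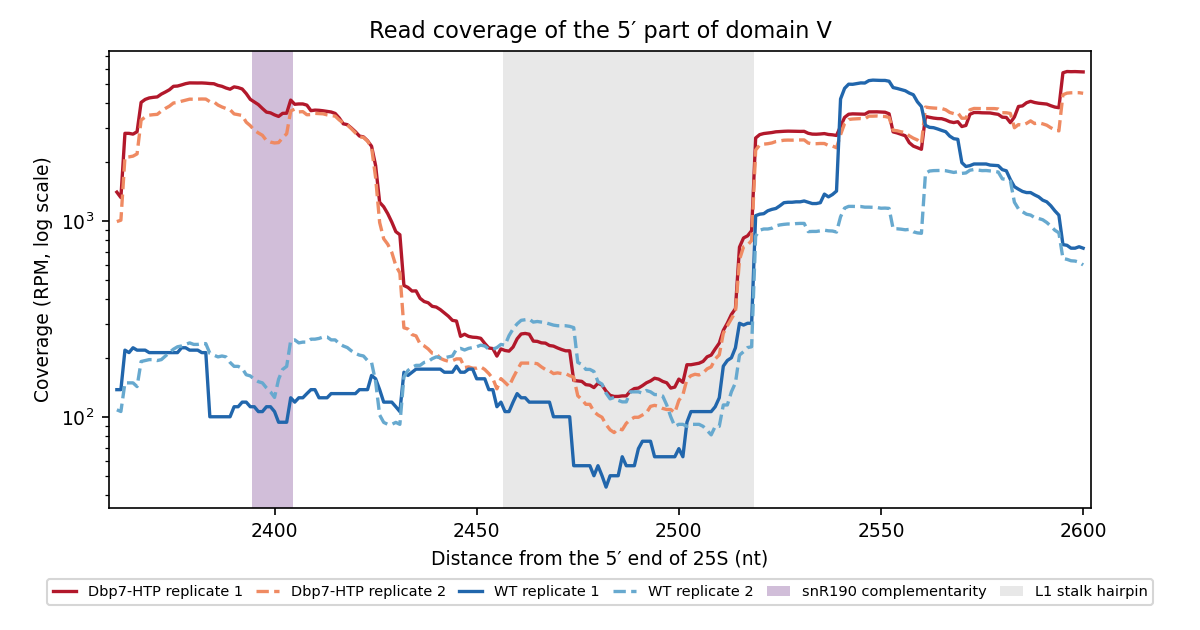
Coverage in RPM on a log axis along nucleotides 2361 to 2600 of 25S, one line per library (Dbp7-HTP red, WT blue), with the snR190 complementarity and the L1 stalk hairpin shaded. Before the hairpin the Dbp7-HTP lines reach 5085 and 4209 RPM where both WT lines stay at or below 257 RPM. All 4 lines have their lowest point in the hairpin and rise at its 3′ end. The line of WT replicate 2 first climbs to 317 RPM within the hairpin, above its level before it.

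Upstream of the snR190 complementarity the 2 Dbp7-HTP libraries had 4309 and 3428 RPM on average, against 177 and 194 RPM in the WT libraries (log2 ratio 4.37). At the complementarity itself, coverage averaged 3714 and 2776 RPM with Dbp7-HTP, against 107 and 162 RPM in WT (log2 ratio 4.60). Between the complementarity and the hairpin the values were 1604 and 1459 RPM in the Dbp7-HTP libraries, against 147 and 203 RPM in WT (log2 ratio 3.14). In these 3 stretches the strains were separated by more than the spread within either, whereas the log2 ratio of the hairpin was 0.60 with SDs of 0.22 for Dbp7-HTP and 0.53 for WT, and that of the 82 nucleotides after it was 0.97 with SDs of 0.07 for Dbp7-HTP and 0.73 for WT (n = 2 each).

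**Figure D2:**
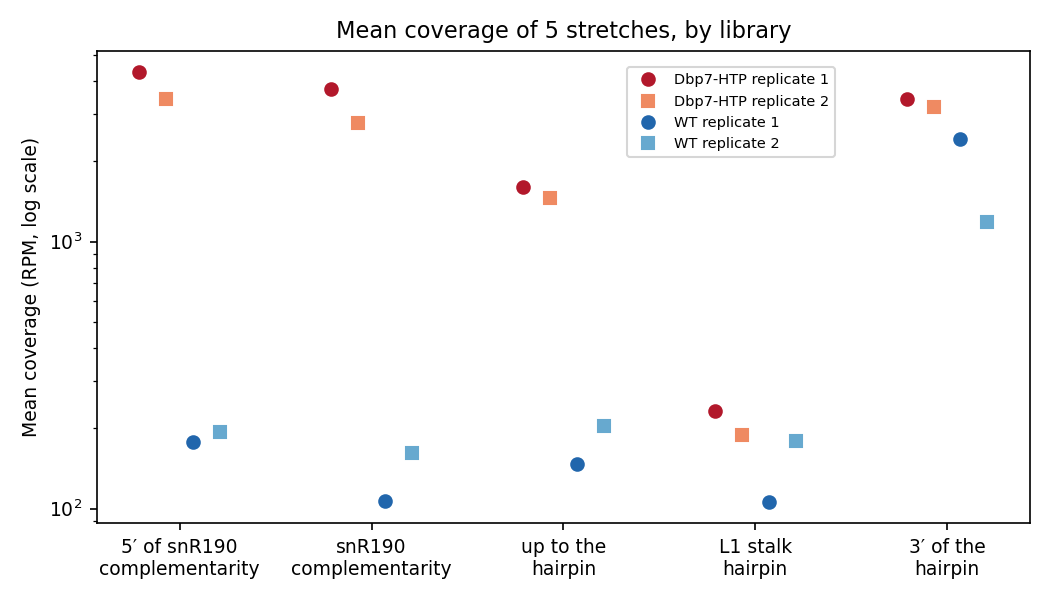
Mean coverage of 5 stretches of 25S from 5′ to 3′ on a log axis, one point per library, Dbp7-HTP left of WT in each stretch. The 2 strains are far apart in the first 3 stretches, where WT stays between 107 and 203 RPM, and close in the last 2.

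For a test along the transcript, the 35S pre-rRNA was cut into 20-nt blocks and fitted with limma on log2(RPM + 1), with p-values adjusted over all 335 blocks with a mean of at least 10 RPM. Of the 12 blocks examined here, 5 were higher with Dbp7-HTP at an adjusted p below 0.05, against 62 of all 335 blocks (18.5%). None of the 12 was lower, against 57 of 335 (17%). The median log2 ratio was 1.26 over the 12 blocks and 0.19 over all 335. The 5 blocks were the 4 that run without a gap from nucleotide 2361 to 2440, and the last one, nucleotides 2581 to 2600.

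The block with the largest ratio was nucleotides 2381 to 2400, which holds the 5′ strand of the root helix and the first bases of the snR190 complementarity. Its coverage was 4508 and 3444 RPM in the Dbp7-HTP libraries, against 124 and 183 RPM in WT, a log2 ratio of 4.70 ± 0.49 (SE, limma, adjusted p = 0.00061). It ranked 2 of all 335 blocks, after the first 20 nucleotides of the 3′ external transcribed spacer (log2 ratio 5.02). Nucleotides 2401 to 2420 ranked 3 of 335, with 3575 and 3301 RPM with Dbp7-HTP and 124 and 231 RPM in WT (log2 ratio 4.33 ± 0.51, SE, limma adjusted p = 0.00063). Nucleotides 2361 to 2380 ranked 4 of 335, with 3938 and 3190 RPM with Dbp7-HTP and 210 and 190 RPM in WT (log2 ratio 4.14 ± 0.47, SE, limma adjusted p = 0.00061). These 3 blocks kept their call under each of the 10 alternatives tried, among them other scalings and filters, a fit blocked on replicate number and fits that left out 1 library.

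The ratio then fell off towards the hairpin. Nucleotides 2421 to 2440 had 1116 and 930 RPM with Dbp7-HTP, against 151 and 159 RPM in WT (log2 ratio 2.71 ± 0.47, SE, limma adjusted p = 0.0030). This call was lost when either Dbp7-HTP library was left out, with an adjusted p of at most 0.097. Nucleotides 2441 to 2460, 2461 to 2480 and 2481 to 2500 had log2 ratios of 0.20, 0.21 and 0.46, with adjusted p of 0.75, 0.77 and 0.49. Coverage of the block from 2461 was 208 and 158 RPM in the Dbp7-HTP libraries, against 93.0 and 263 RPM in WT, so that one WT library lay below and one above both Dbp7-HTP libraries.

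The blocks on the 3′ side of the hairpin were well covered in WT too. Nucleotides 2541 to 2560 had 3173 and 3118 RPM with Dbp7-HTP, against 4857 and 1066 RPM in WT (log2 ratio 0.47 ± 0.68, SE, limma adjusted p = 0.59). The WT libraries enclosed those of Dbp7-HTP there. Without WT replicate 1 the log2 ratio was 1.56, a value that leaves the spread between the WT libraries out. Nucleotides 2501 to 2520, 2521 to 2540 and 2561 to 2580 had log2 ratios of 1.30, 1.23 and 0.78, with adjusted p of 0.056, 0.071 and 0.21. Nucleotides 2581 to 2600 had 4404 and 3559 RPM with Dbp7-HTP, against 1186 and 974 RPM in WT (log2 ratio 1.88 ± 0.48, SE, limma adjusted p = 0.015). That call was lost without either Dbp7-HTP library and when coverage was scaled to the 35S pre-rRNA (log2 ratio 1.04).

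**Figure D3:**
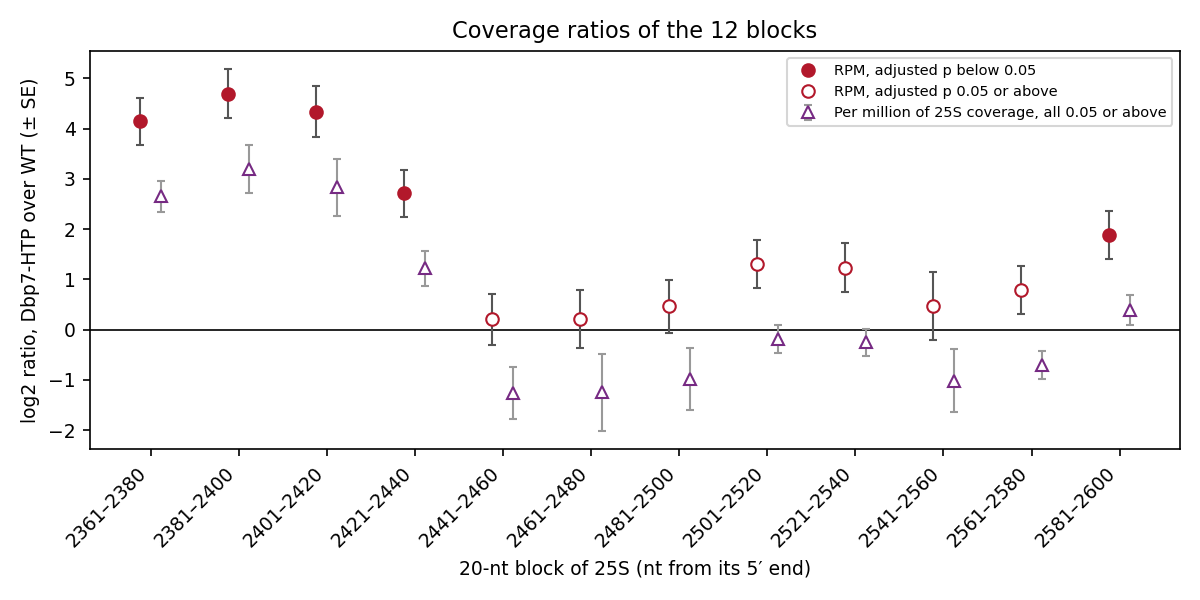
Log2 ratio of Dbp7-HTP over WT (± SE, n = 2 libraries per strain) for the 12 blocks of 20 nt, from coverage in RPM (circles, filled where the adjusted p was below 0.05) and per 1000000 of 25S coverage (triangles). The ratio in RPM is 4.14 or more in the first 3 blocks, at most 0.46 at 2441 to 2500, and lower on the 25S scale throughout.

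The same fit on single nucleotides placed the borders more closely. Of the 240 nucleotides, 89 were higher with Dbp7-HTP, against 1014 of 6603 nucleotides of the 35S pre-rRNA (15.4%), and 0 were lower, against 897 of 6603 (13.6%). Neighbouring nucleotides share reads and are not independent. The 89 lay in 3 stretches. The first was unbroken over 71 nucleotides, 2361 to 2431, with log2 ratios between 2.77 and 4.96 and the highest at nucleotide 2385. The second was nucleotides 2516 to 2518 at the 3′ end of the hairpin, and the third was nucleotides 2586 to 2600. In RPM all 240 fitted log2 ratios were above 0, and their median was 1.03 against 0.16 over all nucleotides tested.

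The first and last of these stretches did not stop at the limits of the sequence examined. The 20 nucleotides before it, 2341 to 2360, had 1131 and 946 RPM with Dbp7-HTP, against 248 and 172 RPM in WT (log2 ratio 2.32 ± 0.49, SE, limma adjusted p = 0.0072). The 20 nucleotides after it, 2601 to 2620, had 5702 and 4679 RPM with Dbp7-HTP, against 701 and 508 RPM in WT (log2 ratio 3.11 ± 0.48, SE, limma adjusted p = 0.0020). Coverage before 2361 was thus lower in the Dbp7-HTP libraries than in the first block inside. Coverage after 2600 was higher than the mean of the last block inside, 4404 and 3559 RPM. At nucleotide 2600 itself it was 5786 and 4501 RPM, so in Dbp7-HTP replicate 1 it did not rise further.

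As a share of 25S coverage the picture was different. The 240 nucleotides, 7.07% of the length of 25S, held 8.16 and 7.40% of its coverage in the Dbp7-HTP libraries, against 7.44 and 6.38% in WT. The means were 7.78% ± 0.54 (SD, n = 2) with Dbp7-HTP and 6.91% ± 0.75 (SD, n = 2) in WT, a difference of 0.88 percentage points with overlapping libraries (exact permutation test, two-sided, p = 0.667). The difference was 0.35 points without WT replicate 2, 0.50 points without Dbp7-HTP replicate 1 and 1.40 points without WT replicate 1, and 0.031 points when the highest maximum of 25S in each library was left out. The 240 nucleotides had a mean of 2346 and 2060 RPM with Dbp7-HTP, against 914 and 529 RPM in WT (log2 ratio 1.66). The rest of 25S had 2007 and 1960 RPM with Dbp7-HTP, against 865 and 590 RPM in WT (log2 ratio 1.47). The SD of the WT log2 values was 0.56 for the 240 nucleotides and 0.39 for the rest of 25S (n = 2). Both ratios come from the same libraries, so these SDs do not measure the spread of the difference between them. The share of 25S coverage makes that comparison within each library.

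The part before the hairpin took 3.87 and 3.30% of the 25S total with Dbp7-HTP, against 0.499 and 0.944% in WT, a difference of 2.86 points (exact permutation test, two-sided, p = 0.333). The share of the hairpin was 0.209 and 0.175% with Dbp7-HTP, against 0.223 and 0.559% in WT. The share after the hairpin was 4.08 and 3.93% with Dbp7-HTP, against 6.71 and 4.88% in WT. On this scale the strains did not overlap in any of the 3 parts, and Dbp7-HTP was higher before the hairpin and lower in it and after it (exact permutation test, two-sided, p = 0.333 in each).

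In the limma fit on coverage per 1000000 of 25S coverage, 0 of 12 blocks passed in either direction, and neither did any of the 170 blocks of 25S (0%). At an unadjusted p below 0.05, 4 of the 12 blocks were higher and 0 lower, against 24 higher (14.1%) and 25 lower (14.7%) of the 170. The largest of all 170 ratios was again that of nucleotides 2381 to 2400, with a log2 ratio of 3.20 ± 0.48 (SE, limma adjusted p = 0.064), and nucleotides 2401 to 2420 came second at 2.83 ± 0.57 (SE, limma adjusted p = 0.078). The median over all 170 blocks was -0.39 and over the 12 blocks -0.22. Leaving out a WT library changed these counts. Without WT replicate 1, 3 blocks were higher and 3 lower, and without WT replicate 2, 4 were higher and 1 lower. For single nucleotides 0 of 240 passed in either direction, as did 0 of 3396 in 25S (0%), while 77 of the 240 were higher and 5 lower at an unadjusted p below 0.05, against 465 higher (13.7%) and 458 lower (13.5%) of the 3396. With a trended, robust variance 39 were higher, and without WT replicate 1 or 2 the number was 73 or 74.

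The maxima differed between the strains in place. In Dbp7-HTP replicate 1 the 3 highest, at least 20 nt apart, were at nucleotides 2596 (5812 RPM), 2379 (5085 RPM) and 2404 (4155 RPM). In Dbp7-HTP replicate 2 they were at nucleotides 2598 (4532 RPM), 2382 (4209 RPM) and 2561 (3827 RPM). In both Dbp7-HTP libraries the first lay at the 3′ end of the sequence and the second in the 5′ part of it. In WT replicate 1 they were at nucleotides 2548 (5254 RPM), 2573 (1961 RPM) and 2527 (1251 RPM), and in WT replicate 2 at 2573 (1837 RPM), 2542 (1191 RPM) and 2521 (913 RPM). All 6 WT maxima were thus 3′ of the hairpin. None was the highest of 25S, of which the first maximum reached 24.2 and 13.7% with Dbp7-HTP, against 29.8 and 15.2% in WT.

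At nucleotide 2379, coverage was 5085 and 4201 RPM in the Dbp7-HTP libraries, against 220 and 240 RPM in WT. At nucleotide 2596 it was 5812 and 4509 RPM in the Dbp7-HTP libraries, against 754 and 640 RPM in WT. The WT maximum at nucleotide 2548 rested on one library, since coverage there was 3618 and 3440 RPM in the Dbp7-HTP libraries, against 5254 RPM in WT replicate 1 and 1179 RPM in WT replicate 2.

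Sharp steps of coverage lay at the same nucleotides in several libraries. Nucleotide 2518 is the last base of the stem found by sequence, which may not be the border of the stalk. Between nucleotides 2518 and 2519 coverage increased 2.97- and 2.89-fold with Dbp7-HTP, against 3.54- and 3.67-fold in WT. This was the second largest rise in RPM within the sequence in all 4 libraries. Between nucleotides 2594 and 2595 coverage increased 1.51- and 1.53-fold with Dbp7-HTP and changed 0.708- and 0.740-fold in WT, so that the strains moved in opposite directions at that place. Between nucleotides 2539 and 2540 the change was 1.11- and 1.17-fold with Dbp7-HTP, against 2.95-fold in WT replicate 1 and 1.2-fold in WT replicate 2. On the 5′ side of the hairpin both Dbp7-HTP libraries had 1 of their 3 largest falls in RPM between nucleotides 2425 and 2426. Coverage fell there to 0.649 and 0.590 of the preceding value, against 0.880 and 0.676 in WT.

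Across the 240 nucleotides, Pearson's r of log2 coverage was 0.995 between the Dbp7-HTP libraries and 0.917 between the WT libraries. Between strains it lay between 0.546 and 0.615. Neighbouring nucleotides share reads, and these values describe the profiles only.

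Substitutions show at which uridines a T-to-C change was read, in WT as well as with Dbp7-HTP. Only reads with such a change were kept. The counts therefore rise with coverage and are not evidence separate from it. The 63 uridines held 21664 and 12523 substitutions with Dbp7-HTP, against 1335 and 1975 in WT, which was 8.30 and 7.60% of the substitutions of 25S with Dbp7-HTP and 8.72 and 6.89% in WT. The means were 7.95% ± 0.50 (SD, n = 2) with Dbp7-HTP and 7.80% ± 1.30 (SD, n = 2) in WT (exact permutation test, two-sided, p = 1), and the strains overlapped. Before the hairpin, 4.05 and 3.42% of the substitutions of 25S were found with Dbp7-HTP, against 0.523 and 0.879% in WT. After the hairpin the share was 4.06 and 4.00% with Dbp7-HTP, against 7.91 and 5.35% in WT.

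The substitution counts of the 1499 uridines of the 35S pre-rRNA with at least 10 in all were fitted with edgeR's quasi-likelihood test, with the read totals as library sizes. Of the 63 uridines here, 58 passed this minimum, and the other 5 lay in the hairpin. Substitutions were higher with Dbp7-HTP at 12 of the 58, against 191 of 1499 uridines (12.7%), and lower at 0, against 160 of 1499 (10.7%). DESeq2 with the same totals called 11 higher and 0 lower, not all of them the same uridines. The median log2 ratio was 0.61 over the 58 and 0.11 over all 1499. All 3 tested uridines upstream of the snR190 complementarity were higher, as were 6 of 16 between it and the hairpin, 0 of 16 in the hairpin and 3 of 23 after it. The count was 3 when either Dbp7-HTP library was left out and 30 without WT replicate 1. With the substitutions of 25S as the library size, 5 of the 58 were higher and 6 lower.

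The 3 uridines most substituted with Dbp7-HTP were all before the hairpin, on both sides of the snR190 complementarity. U2388 lies 7 nt upstream of it. There the substitution level was 2103 and 1597 RPM in the Dbp7-HTP libraries, against 25.1 and 47.1 RPM in WT (log2 ratio 5.61, edgeR adjusted p = 0.0091). In counts these were 2553 and 1167 substitutions with Dbp7-HTP, against 4 and 22 in WT. U2411 lies 7 nt downstream of it, with 2019 and 1916 RPM with Dbp7-HTP and 37.7 and 89.8 RPM in WT (log2 ratio 4.89, edgeR adjusted p = 0.0091). At U2380 the level was 1796 and 1547 RPM in the Dbp7-HTP libraries, against 31.4 and 72.7 RPM in WT (log2 ratio 4.94, edgeR adjusted p = 0.0091). The strains did not overlap at any of the 3. U2388 and U2380 kept their call under all 10 alternatives, and U2411 lost it when either Dbp7-HTP library was left out (adjusted p of at most 0.054).

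U2410, next to U2411, had 852 and 942 RPM with Dbp7-HTP, against 12.6 and 53.5 RPM in WT (log2 ratio 4.62, edgeR adjusted p = 0.0091). At U2423 there were 27 and 17 substitutions with Dbp7-HTP and 0 in both WT libraries (edgeR adjusted p = 0.025), which is at least 4.75-fold higher when WT is set to a floor of 3 counts over both libraries. That call was lost without either Dbp7-HTP library, without WT replicate 2 and with the substitutions of 25S as library size. U2379, U2408, U2421 and U2428 were also higher, with log2 ratios between 2.39 and 3.32. U2428 had 1 substitution in each WT library. It passed narrowly with edgeR (adjusted p = 0.049) and did not pass with DESeq2 (adjusted p = 0.13).

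After the hairpin, U2521 had 1207 and 1365 RPM with Dbp7-HTP, against 270 and 280 RPM in WT (log2 ratio 2.22, edgeR adjusted p = 0.027). This uridine lies 3 nt after the stem found by sequence. Its call was lost without either Dbp7-HTP library and with the substitutions of 25S as library size (log2 ratio 0.66, edgeR adjusted p = 0.40). U2578 and U2596 were also higher, with log2 ratios of 2.50 and 2.33. At U2553, among the 5 most substituted uridines of both strains, the level was 1108 and 1100 RPM in the Dbp7-HTP libraries, against 509 and 237 RPM in WT (log2 ratio 1.58, edgeR adjusted p = 0.089).

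The other uridines that led in WT did not pass the test. At U2571 the level was 485 and 647 RPM in the Dbp7-HTP libraries, against 679 and 691 RPM in WT (log2 ratio -0.28, edgeR adjusted p = 0.73). At U2570 it was 661 and 872 RPM in the Dbp7-HTP libraries, against 490 and 646 RPM in WT (log2 ratio 0.43, edgeR adjusted p = 0.58). These 2 neighbouring uridines held 31.6% of the substitutions of the sequence in WT replicate 2. U2558 and U2541 led in WT replicate 1 only, with 742 and 540 RPM there, against 57.8 and 178 RPM in WT replicate 2. With Dbp7-HTP they had 242 and 242 RPM at U2558 and 331 and 326 RPM at U2541.

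**Figure D4:**
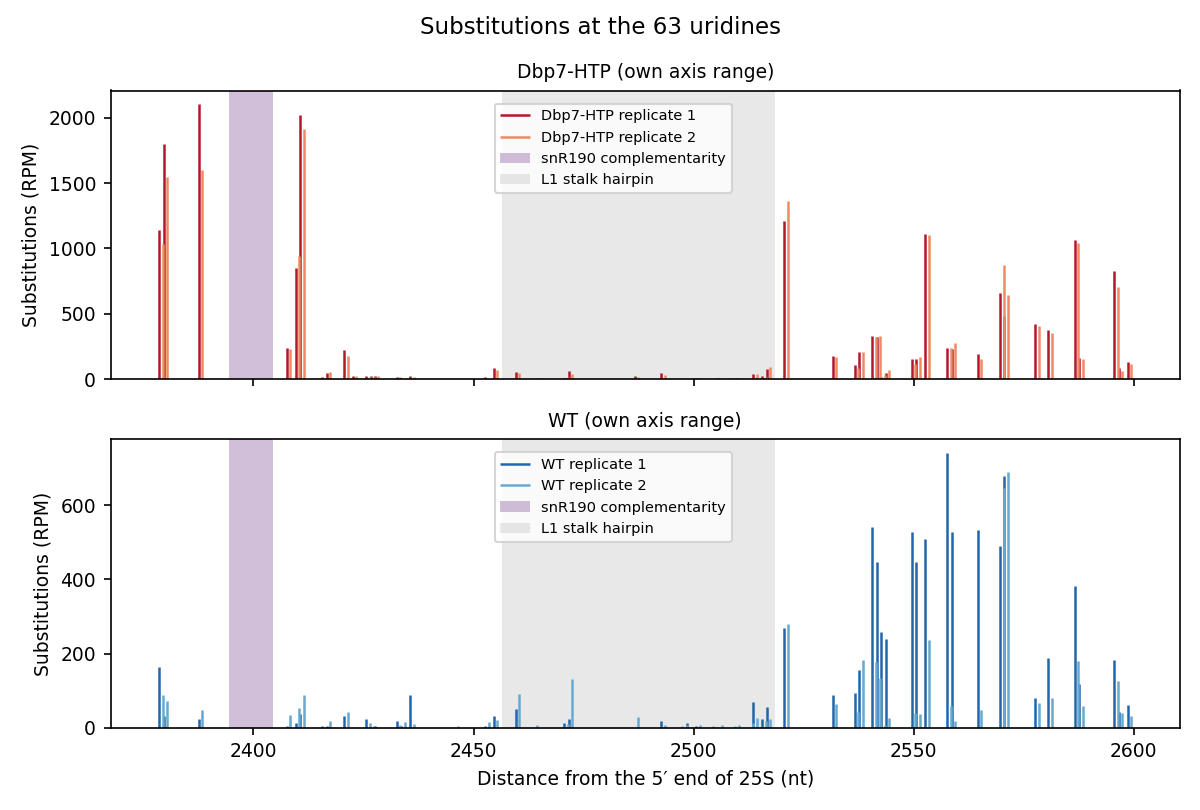
Substitutions in RPM at each of the 63 uridines along 25S, the 2 Dbp7-HTP libraries above and the 2 WT libraries below, each panel with its own linear axis from 0. The tallest Dbp7-HTP lines, at U2388, U2411 and U2380, stand on both sides of the snR190 complementarity where WT lines stay at or below 163 RPM. In the hairpin all lines stay at or below 133 RPM. WT replicate 2 has that level at U2472, above all its values before the hairpin.

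The share of reads with a substitution at a given uridine also varied along the sequence. Only reads with a T-to-C change were kept, so a read over few uridines must carry its substitution at those few. These shares therefore depend on how densely uridines lie and are not rates of cross-linking. At the 3 uridines upstream of the snR190 complementarity, 33.7 and 34.4% of reads were substituted with Dbp7-HTP, against 40.7 and 30.6% in WT. Over all 63 uridines the share was 13.6 and 14.4% with Dbp7-HTP, against 12.1 and 12.7% in WT, and over all 869 uridines of 25S it was 11.1 and 11.4% with Dbp7-HTP, against 12.5 and 11.6% in WT. The strains overlapped at the 3 uridines but not over the 63. The direction differed between single uridines. At U2411, 54.8% (95% Wilson interval 53.3 to 56.2) and 54.1% (52.2 to 56.0) of reads were substituted with Dbp7-HTP, against 30.0% (14.5 to 51.9) and 35.6% (27.5 to 44.6) in WT. At U2379 the order was the reverse, with 22.4% (21.4 to 23.5) and 24.6% (23.1 to 26.2) with Dbp7-HTP, against 74.3% (57.9 to 85.8) and 36.6% (28.3 to 45.8) in WT. The intervals cover counting error only, since copies made by PCR are not independent molecules.

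Nucleotides of this sequence that are known to carry a modification lie just downstream of the snR190 complementarity, and each had the named base in the deposited sequence. The pseudouridine at 2416, made under the guidance of snR11, was covered by 3368 and 3291 RPM with Dbp7-HTP, against 132 and 237 RPM in WT, and had 18 and 9 substitutions with Dbp7-HTP, against 1 and 0 in WT. In both Dbp7-HTP libraries its share of substituted reads, 0.440% (95% Wilson interval 0.279 to 0.695) and 0.374% (0.197 to 0.710), was the lowest of the 19 uridines before the hairpin. In WT the shares were 4.76% (0.846 to 22.7) and 0% (0 to 3.35), of which the first, resting on 1 of 21 reads, had an interval above those of Dbp7-HTP and the second an interval that overlapped them. The 2′-O-methylated Um2417, guided by snR66, had 1.6 and 1.68% with Dbp7-HTP, against 4.76 and 8.33% in WT, and Um2421, guided by snR78, had 8.11 and 6.69% with Dbp7-HTP, against 22.7 and 20.6% in WT. Of these uridines only the last passed the test of substitution counts (log2 ratio 2.39, edgeR adjusted p = 0.023). G2395 is the first base of the snR190 complementarity and the one its box would select. It is not among the known modified nucleotides, since the paper states that methylation there was predicted but has not been detected. It cannot record a substitution and was covered by 4064 and 2918 RPM with Dbp7-HTP, against 113 and 156 RPM in WT.

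The root helix that closes domain V was placed as it is drawn in the secondary structure of mature 25S. Its 5′ strand overlaps the snR190 complementarity by 2 nt. Of 10 positions, 8 were Watson-Crick pairs, 1 was a G-U pair and 1 a mismatch, which is in lower case.
25S nucleotides 2387 to 2396, root helix 5′ strand: AUCAGcGGGG
25S nucleotides 2983 to 2992, root helix 3′ strand: CCCUaCUGAU
Other stretches of 25S pair as well with the 5′ strand, and the pairing alone does not single out this partner. The 5′ strand was covered by 4547 and 3383 RPM in the Dbp7-HTP libraries, against 110 and 178 RPM in WT (log2 ratio 4.80). For the 3′ strand the values were 3022 and 2583 RPM in the Dbp7-HTP libraries, against 467 and 596 RPM in WT (log2 ratio 2.40). Both strands were above the spread within the strains, and within each library the 5′ strand had 1.5 and 1.31 times the coverage of the 3′ strand with Dbp7-HTP, against 0.236 and 0.298 times in WT (exact permutation test on log2 values, two-sided, p = 0.333).

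Between the 2 strands of the root helix, the 382 nucleotides that follow nucleotide 2600 were compared, since they hold the remainder of domain V. On average 5396 and 5198 RPM covered them in the Dbp7-HTP libraries, against 882 and 597 RPM in WT (log2 ratio 2.87), and they took 29.9 and 29.7% of the coverage of 25S in the Dbp7-HTP libraries, against 11.4 and 11.5% in WT. On the share scale these nucleotides gained 18.4 percentage points, against 0.88 points for nucleotides 2361 to 2600 (exact permutation test, two-sided, p = 0.333 and 0.667).

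Of the snoRNAs with a target among the 240 nucleotides, snR190 had 4425 reads (6056 RPM) in Dbp7-HTP replicate 2, against 236 reads (504 RPM) in WT replicate 2, a ratio of 12 (95% Clopper-Pearson interval 10.5 to 13.7). The reads of the other 3 guides did not follow it. The H/ACA snoRNA snR11 had 57 reads in the Dbp7-HTP library and 34 in that of WT (ratio 1.07, interval 0.690 to 1.69). The C/D snoRNA snR66 had 14 reads in the Dbp7-HTP library and 52 in that of WT (ratio 0.172, interval 0.0882 to 0.315). The C/D snoRNA snR78 had 10 reads in the Dbp7-HTP library and 23 in that of WT (ratio 0.278, interval 0.118 to 0.608). The median ratio over 75 snoRNAs with at least 10 reads and some in WT was 0.730. These ratios compare 1 library of each strain, have no replicate check and cover counting error only. The 10 nucleotides of snR190 that pair with 25S had a mean of 407 RPM with Dbp7-HTP and 25.6 RPM in WT, below the means over all of snR190 of 952 RPM with Dbp7-HTP and 75.3 RPM in WT.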

How the data were processed

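The authors mapped the reads of 4 libraries to the S. cerevisiae S288C genome with Bowtie2 (version 2.2.4, also in the submitters' processing notes), kept reads with a T-to-C change and counted RNA classes with pyCRAC. They deposited, without normalization, the coverage signal for every position of the 35S pre-rRNA, with the count of substitutions beside it. The deposited values of RNA classes, snoRNAs and the snR190 profile are scores, that is, reads per 1000000 mapped reads that the authors had rounded down to whole numbers. With the totals, 100% of the snoRNA values of the second replicates equalled a whole number of reads rounded down to whole RPM, which by itself holds for 73.1% of the whole numbers from 1 to 1000 with Dbp7-HTP and for 46.7% in WT.

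The read totals were 1214217 (estimated) and 730583 for Dbp7-HTP replicates 1 and 2, and 159127 (estimated) and 467529 for WT replicates 1 and 2. Totals of the second replicates stand in the headers of the snR190 files. Those of the first were estimated from their 35S coverage and rRNA RPM, taking the coverage that 1 rRNA read gave in the same strain's second replicate (11.1 with Dbp7-HTP and 12.2 in WT). Groups and replicate numbers came from the sample titles. The members and the lists of sites and snoRNAs were chosen with earlier results of these data known. The build of the deposited coordinates is not given in the sources used here, and positions count from the first base of the deposited 25S.

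Coverage was tested with limma (version 3.58.1, R 4.3.3) on log2(value + 1), for blocks or nucleotides with a mean of at least 10, and substitution counts with edgeR's quasi-likelihood test (version 4.0.16) at uridines with at least 10, both across all features with Benjamini-Hochberg adjustment at 0.05 and in fits of the 4 libraries without covariates. DESeq2 (version 1.42.0) was an alternative. Single values were compared by an exact permutation test. Named were all 12 blocks and the 3 highest maxima at least 20 nt apart in each library. Of uridines, the 5 most substituted of each strain and the 5 called ones with the largest ratio in each direction were named. Also named were the snR190 complementarity, the root helix strands, the known modified nucleotides and G2395. U2379, U2408, U2428, U2578 and U2596 were added after their values were seen. The stem of the L1 stalk hairpin and the stretches between features were also set after the coverage was seen, from the sequence alone. Python 3.11.15, scipy 1.17.1 and matplotlib 3.10.9 were used for the rest.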

Additional observations from a re-analysis of the deposited data

How the results depend on the processing

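With 2 libraries per strain, many values moved with the library left out, and the lone library of a strain was then assumed to vary like the other strain. The number of blocks higher in RPM was 3 without either Dbp7-HTP library, 9 without WT replicate 1 and 6 without WT replicate 2. Per 1000000 of 25S coverage, 0 to 4 blocks were higher and 0 to 3 lower. Of nucleotides, 66 to 153 were higher in RPM, and on the 25S scale 0 to 74 were higher and 0 to 56 lower. Of uridines, 3 to 30 were higher and 0 to 8 lower. In each of these ranges the highest value came without a WT library. The difference in share of 25S coverage lay between 0.35 and 1.40 percentage points. The difference in share of 25S substitutions lay between -0.77 and 1.06 percentage points. Log2 ratios lay between -0.11 and 0.51 for the block from 2441, -0.54 and 0.95 for that from 2461, -0.048 and 0.97 for that from 2481, -0.63 and 1.56 for that from 2541, -0.72 and 0.89 for U2541 and -1.61 and 2.07 for U2558. Scaling coverage to the 35S pre-rRNA lowered the median log2 ratio of all blocks by 0.73. It gave a log2 ratio of 0.82 for the mean coverage of the 240 nucleotides and turned the sign for the blocks from 2441 (-0.61), 2461 (-0.61), 2481 (-0.35), 2541 (-0.37) and 2561 (-0.051), none of which had passed the test. With 35S in place of 25S as denominator, the difference in share was 2.87 points for coverage and 2.52 points for substitutions. Without the highest maximum of each library and 100 nt on either side of it, the difference in share of 25S coverage was 0.031 points. With a trended, robust variance, 39 nucleotides were higher on the 25S scale. With the substitutions of 25S as library size, 5 uridines were higher and 6 lower, and U2570 had a log2 ratio of -1.17. Without the minimum of 10 substitutions, 1 uridine was lower. The cause of these changes was not tested. Over all settings, 366 recomputed values were classed as the same, 38 as stronger, 19 as weaker, 17 as reversed and 5 as moved. Values with a test were the same if they kept their direction and their side of the threshold. For counts and values without a test the class was loose. It put 66 and 115 nucleotides with the reported 89, and a share difference of 0.35 points with the reported 0.88. Replicate numbers are shared between the strains, and each may stand for one of the study's independent experiments, although the labels do not say so. The deviations of same-numbered libraries correlated at 0.127 over 335 blocks, with 2 pairs only. With the replicate number as a block, none of the 12 blocks gained or lost its call, 5 blocks, 91 nucleotides and 11 uridines were higher, and the log2 ratios of U2541 and U2558 were 0.083 and 0.18.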
